A study of Caenorhabditis elegans with 2 samples.

Results

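The genes described here are 7 protein-coding genes with a high KLF-2 peak upstream of them, K12H4.5, uncp-18, M01F1.9, atx-2, ecps-1, eel-1 and T13C5.6, out of 19973 protein-coding genes on the nuclear chromosomes. The genes were chosen by peak height. Each has, among the 20 peaks with the highest signal value in the conservative list of both replicates (1032 peaks), one whose summit lies in its promoter window, and that summit is more than 100 bp from every tRNA, snoRNA and snRNA gene. A promoter window is the stretch between 1000 bp before and 500 bp after a transcript start. Ears-2 has the uncp-18 summit in its window as well and meets the same rule, but it is not among the 7 listed genes. Atx-2 and ecps-1 share 1 peak, so there are 6 distinct peaks. Of the other 14 peaks among the 20, 12 lay at a tRNA, snoRNA or snRNA gene and 2 lay away from such genes but outside every window.

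Chromatin bound by KLF-2, a zinc-finger protein of the Krüppel-like family, was mapped by ChIP-seq in whole embryos at the midembryonic stage of Caenorhabditis elegans strain RW12310, and the deposited peak lists are used here. The strain carries the allele st12310, in which klf-2 was fused by CRISPR to TY1, EGFP and 3xFLAG, and the tagged protein was recovered from sonicated chromatin with an antibody against GFP. The embryos were synchronised by egg bleaching and had an age of 1.5 hours per the labels. There was 1 group of 2 biological replicates, both of this strain, and no second condition. The allele is labelled as being on chromosome II, while klf-2 itself is annotated on chromosome V. Signal is from whole embryos, so no cell type can be assigned.

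Krüppel-like factors bind DNA through adjacent C2H2 zinc fingers near the C terminus and recognise GC-rich or CACCC boxes, from which they activate or repress the neighbouring genes. In C. elegans the protein-coding start is often hidden, because many transcripts lose their first stretch when a spliced leader is joined to them, so an annotated start can lie well downstream of the place where transcription begins. Genes can also be transcribed together as an operon from the promoter of the first gene.

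The 6 peak sequences are shown because they fall into different kinds of DNA, to which the results return. K12H4.5 has repeated GCGCATTTC, and ears-2 / uncp-18 and atx-2 / ecps-1 have runs of alternating C and G. M01F1.9 and eel-1 share a stretch of 15 bp, and CCCCTTTTCG occurs in 5 copies at eel-1 but in 1 at M01F1.9. T13C5.6 has letters of a tRNA promoter element. All 6 sequences are given 5′ to 3′ on the plus strand of WBcel235 (RefSeq), whose coordinates are those of ce11. Each runs over the whole peak, except that the ears-2 / uncp-18 sequence holds the stretch between both annotated starts. Capitals mark GCGCATTTC at K12H4.5, CGCGC on either strand at ears-2 / uncp-18 and atx-2 / ecps-1 and also GGGCGG at the latter, CCCCTTTTCG and GTGGGGCC on either strand at M01F1.9 and eel-1, and GGTTCNA at T13C5.6.
K12H4.5, chrIII:8043836-8044093: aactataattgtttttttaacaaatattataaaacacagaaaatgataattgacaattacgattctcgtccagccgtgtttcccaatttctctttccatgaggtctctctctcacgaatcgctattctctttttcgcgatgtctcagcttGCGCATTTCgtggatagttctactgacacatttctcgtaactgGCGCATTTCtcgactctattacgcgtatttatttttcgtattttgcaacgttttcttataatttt
ears-2 / uncp-18, chrIV:390469-390559: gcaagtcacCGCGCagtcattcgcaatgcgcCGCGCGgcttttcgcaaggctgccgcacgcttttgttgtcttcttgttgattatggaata
atx-2 / ecps-1, chrIII:10461216-10461427: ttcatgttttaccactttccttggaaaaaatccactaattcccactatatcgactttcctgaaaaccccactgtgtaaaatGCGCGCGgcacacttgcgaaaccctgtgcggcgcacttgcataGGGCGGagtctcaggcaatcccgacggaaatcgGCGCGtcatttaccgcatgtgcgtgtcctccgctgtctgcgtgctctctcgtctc
M01F1.9, chrIII:3499934-3500151: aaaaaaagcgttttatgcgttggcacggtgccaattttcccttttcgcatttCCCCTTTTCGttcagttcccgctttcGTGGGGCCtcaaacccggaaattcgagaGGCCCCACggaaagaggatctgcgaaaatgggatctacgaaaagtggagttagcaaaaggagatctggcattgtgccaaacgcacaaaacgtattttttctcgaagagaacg
eel-1, chrIV:3050782-3050987: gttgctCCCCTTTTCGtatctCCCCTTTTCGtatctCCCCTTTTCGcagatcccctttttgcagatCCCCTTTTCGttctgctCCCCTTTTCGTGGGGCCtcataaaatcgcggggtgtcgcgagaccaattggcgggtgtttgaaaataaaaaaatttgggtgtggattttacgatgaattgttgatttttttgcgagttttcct
T13C5.6, chrX:6207795-6207978: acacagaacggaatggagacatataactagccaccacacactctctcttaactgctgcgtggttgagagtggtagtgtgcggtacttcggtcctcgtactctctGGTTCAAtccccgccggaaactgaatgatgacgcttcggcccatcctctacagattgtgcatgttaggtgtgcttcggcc

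The heights that chose the peaks are given as a description, without a test. The authors' signal value, which cannot be compared in size from one list to another, was 860 at K12H4.5, 473 at uncp-18, 458 at M01F1.9, 449 at atx-2 and ecps-1, 432 at eel-1 and 385 at T13C5.6. Their ranks in the conservative list were 2, 8, 10, 11, 12 and 16, against a median signal value of 93.9 over all 1032 peaks. K12H4.5 stood apart, and the other 5 lay close together. At the edge of the choice, the peak of rank 20 at col-85 had 362.9 and lay at a tRNA gene, and that of rank 21 at spd-5 and npp-6 had 362.8. The limit of 20 therefore separates nearly equal heights.

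**Figure D1:**
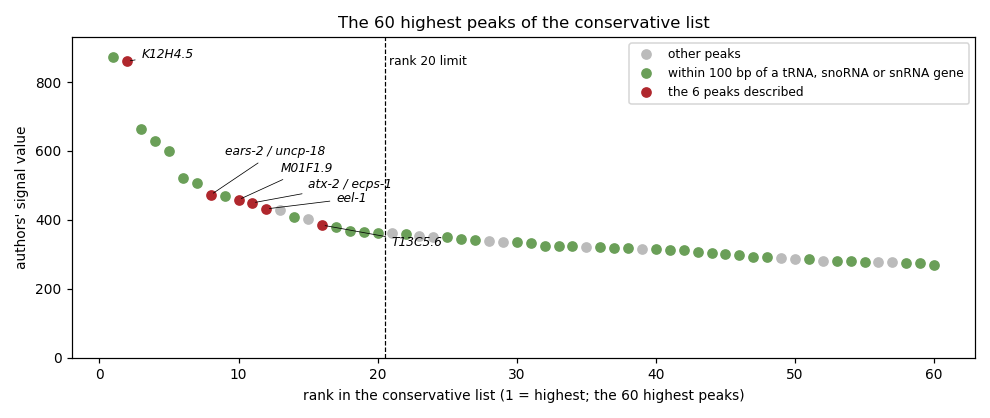
Signal value (y axis, the authors' unit, linear from 0) against rank (x axis) for the 60 highest peaks of the conservative list; each point is 1 peak and the dashed line is the limit at rank 20. The 6 red points run from 860 at K12H4.5 to 385 at T13C5.6, and green points, at tRNA, snoRNA or snRNA genes, lie among them.

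All 7 genes had a summit in their window in each replicate's own thresholded list, where 1.29% of genes (replicate 1) and 1.52% (replicate 2) had one. In the conservative list the share of genes was 3.05%, as it was in the second thresholded list of both replicates. A count of 7 of 7 follows from the choice of members, and nothing is read from it, since the series-level lists were made from these replicates. With a window of 2000 bp upstream 4.12% of genes had a summit, and 3.26% had a peak that overlapped the window, the 7 among them in both cases. In a window from 200 bp upstream to 100 bp downstream, 1.06% of genes and 3 of the 7 had a summit. The ranked lists hold peaks without a threshold, and there the background was 77.9% and 78% of genes in the lists of both replicates, 61.3% in replicate 1 and 54.8% in replicate 2, so the presence of a ranked peak in a window says little.

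Replicate 1 gave K12H4.5 a signal value of 379 and replicate 2 gave it 490. That was rank 2 of 436 thresholded peaks in replicate 1 and rank 1 of 456 in replicate 2, and in both replicates it was the highest of the 6. The peak at uncp-18 had 256 and 213 (ranks 8 and 12), that at atx-2 and ecps-1 had 243 and 213 (ranks 10 and 13), and that at M01F1.9 had 235 and 223 (ranks 12 and 8). At eel-1 the values were 237 and 205 (ranks 11 and 17). T13C5.6 was the lowest in replicate 1, at 170 and rank 25, but not in replicate 2, where it had 208 and rank 16, just above eel-1. The order of the 5 lower peaks differed between the replicates, and in replicate 2 they spanned 205 to 223. With 2 replicates on scales that are not normalized to each other, these 5 cannot be put in order.

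**Figure D2:**
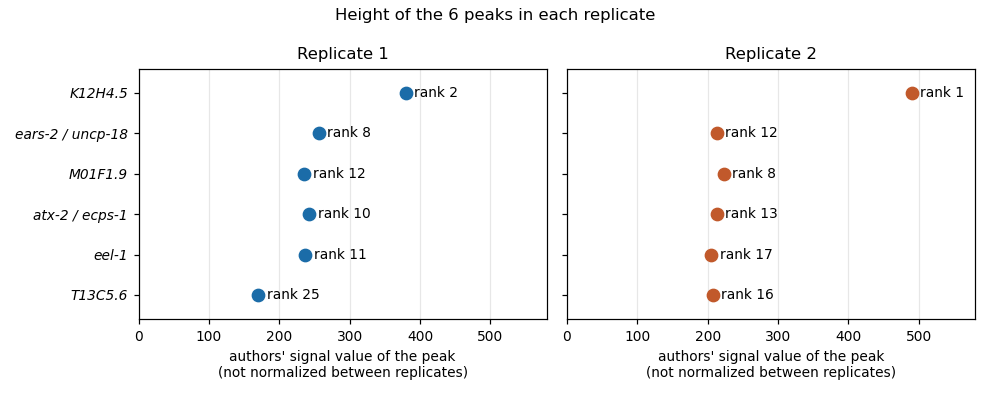
Signal value of the 6 peaks (x axis, the authors' unit, linear from 0) in replicate 1 and replicate 2, with each peak's rank in that replicate's thresholded list; 1 point is 1 peak in 1 replicate and the panels are not normalized to each other. K12H4.5 is the highest in both (379 and 490), and the order of the other 5 differs. T13C5.6 is the lowest in replicate 1, whereas in replicate 2 M01F1.9 is the highest of the 5 and eel-1 the lowest.

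The summits of the 2 replicates lay 4 to 28 bp apart. They differed by 4 bp at T13C5.6, 6 bp at K12H4.5, 9 bp at uncp-18, 17 bp at M01F1.9, 18 bp at atx-2 and ecps-1 and 28 bp at eel-1. The median was 13 bp, beside 19 bp over the 954 conservative peaks that each replicate's ranked list matched within 100 bp. It lay inside the quartiles of those 954, which were 7 and 43 bp. The median was 21 bp for the 368 of these that lie in promoter windows away from small-RNA genes. The peaks had widths of 184 to 258 bp, below the median of 296 bp in the conservative list. Both quartiles of that list were 296 bp as well, so much of the list shared the same width. In it 91 of 1032 peaks were at most 258 bp wide, and the narrowest had 74 bp. A width below 296 bp is therefore not particular to these peaks. The authors' caller gave both height and width, so the widths are not independent of the choice.

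The next question was which gene each peak fits. The gene with the nearest protein-coding transcript start was taken as the best fit, and starts whose distances differed by less than 100 bp were taken as a tie. By this rule 5 of the 6 peaks had a listed gene as the nearest. The exception was the uncp-18 peak, where the nearest gene, ears-2, is left out of the list although its window holds the summit. All 6 summits lay upstream of the listed starts, at 64 to 978 bp, and the annotation had 2 to 4 genes with a start within 3000 bp of each.

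The first peak on chromosome IV lay between ears-2 and uncp-18, which run in opposite directions with 91 bp between their starts. Ears-2 encodes a mitochondrial glutamyl-tRNA synthetase, and uncp-18 a protein of the Sec1/Munc18 family, whose members bind syntaxins in membrane fusion. The series-level summit was 17 bp upstream of the ears-2 start and 75 bp upstream of the uncp-18 start, so it fits both genes. Replicate 1 put the summit 8 bp nearer to uncp-18 and replicate 2 put it 1 bp nearer to ears-2. With starts this close, the 100 bp rule gives a tie for any summit position, so the replicates could not break it. The next start was that of ssna-1, which lies 2255 bp away with the summit downstream of it.

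The atx-2 peak on chromosome III lay 64 bp upstream of the first of 3 atx-2 starts nearby (the others are 303 and 388 bp away) and 774 bp upstream of ecps-1, in the 837 bp between these 2 divergent genes. Atx-2 is the worm ataxin-2, an RNA-binding protein with an Sm-like domain that acts in translational control, and ecps-1 is annotated as the proteasome component Ecm29. The peak fits atx-2. Ecps-1 had a conservative peak of its own, 555 bp from the shared summit and 219 bp upstream of the ecps-1 start, with a signal value of 153 and rank 204. It had 66.4 in replicate 1 and 84.6 in replicate 2, below the atx-2 peak in both. Thus the peak that put ecps-1 on the list is nearer to its neighbour, and the peak nearest to ecps-1 is not among the highest.

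At eel-1, which encodes a HECT-type ubiquitin ligase, the summit lay 797 bp upstream of the first of 3 starts (861 and 930 bp from the others). No other gene had a nearer start, and ivph-3 began 2827 bp away on the other strand. A second conservative peak lay 422 bp closer to eel-1, 375 bp upstream of its first start, with a signal value of 225 and rank 84. It had 119 in replicate 1 and 138 in replicate 2, against 237 and 205 for the higher peak. Both peaks fit eel-1, and the lower of them is nearer to the gene. A second conservative peak within 3000 bp was present for 2 of the 6 peaks (33.3%), beside 79 of 405 (19.5%) for all conservative promoter peaks away from small-RNA genes.

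The summit at K12H4.5, an uncharacterised gene, lay 530 bp upstream of its start, in the 1611 bp between K12H4.5 and the divergent gene K12H4.6, whose start was 1082 bp away. K12H4.5 is the first of 3 genes in a row on the same strand. Spcs-3, a subunit of the signal peptidase complex, follows after 236 bp and K12H4.3, annotated as a homologue of the ribosome biogenesis protein BRX1, after a further 102 bp. Their starts were 1060 and 2077 bp from the summit. Nearest is K12H4.5, and whether the 3 genes share a promoter is not given in the files. The nearest tRNA, snoRNA or snRNA gene was a tRNA gene 25448 bp away, and over the 6 peaks that distance ran from 12198 bp at T13C5.6 to 211654 bp at eel-1.

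M01F1.9, which encodes a protein with an arrestin N-terminal domain, had the most distant start of the 6. It lay 978 bp from the summit, close to the window limit of 1000 bp. The summit lies in an intron of the neighbouring gene M01F1.8, which runs on the same strand and ends 312 bp before the M01F1.9 start, and M01F1.8 itself starts 2510 bp away with the summit downstream of it. By distance M01F1.9 is the best fit, but the peak is inside another gene. Whether M01F1.8 and M01F1.9 share a promoter was not examined.

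At T13C5.6, annotated as a phosphatidic acid phosphatase of type 2 by its domain, the summit lay 185 bp upstream of the start. C14F11.7 had its start 691 bp away and the summit downstream of it. Mtp-18, a mitochondrial fission gene on the same strand that overlaps the end of T13C5.6 by 44 bp, began 1467 bp away. Whether T13C5.6 and mtp-18 share a promoter was not examined. The summit is also inside C14F11.14, an unclassified non-coding RNA gene of 147 bp on the other strand (X, 6207835 to 6207981), 37 bp from its 5′ end. The peak is away from tRNA, snoRNA and snRNA genes, yet it lies on an RNA gene of another class, and when starts of every class are counted C14F11.14 is the nearest. Of the 405 conservative promoter peaks away from small-RNA genes, 27 (6.67%) had the summit inside such an ncRNA gene.

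**Figure D3:**
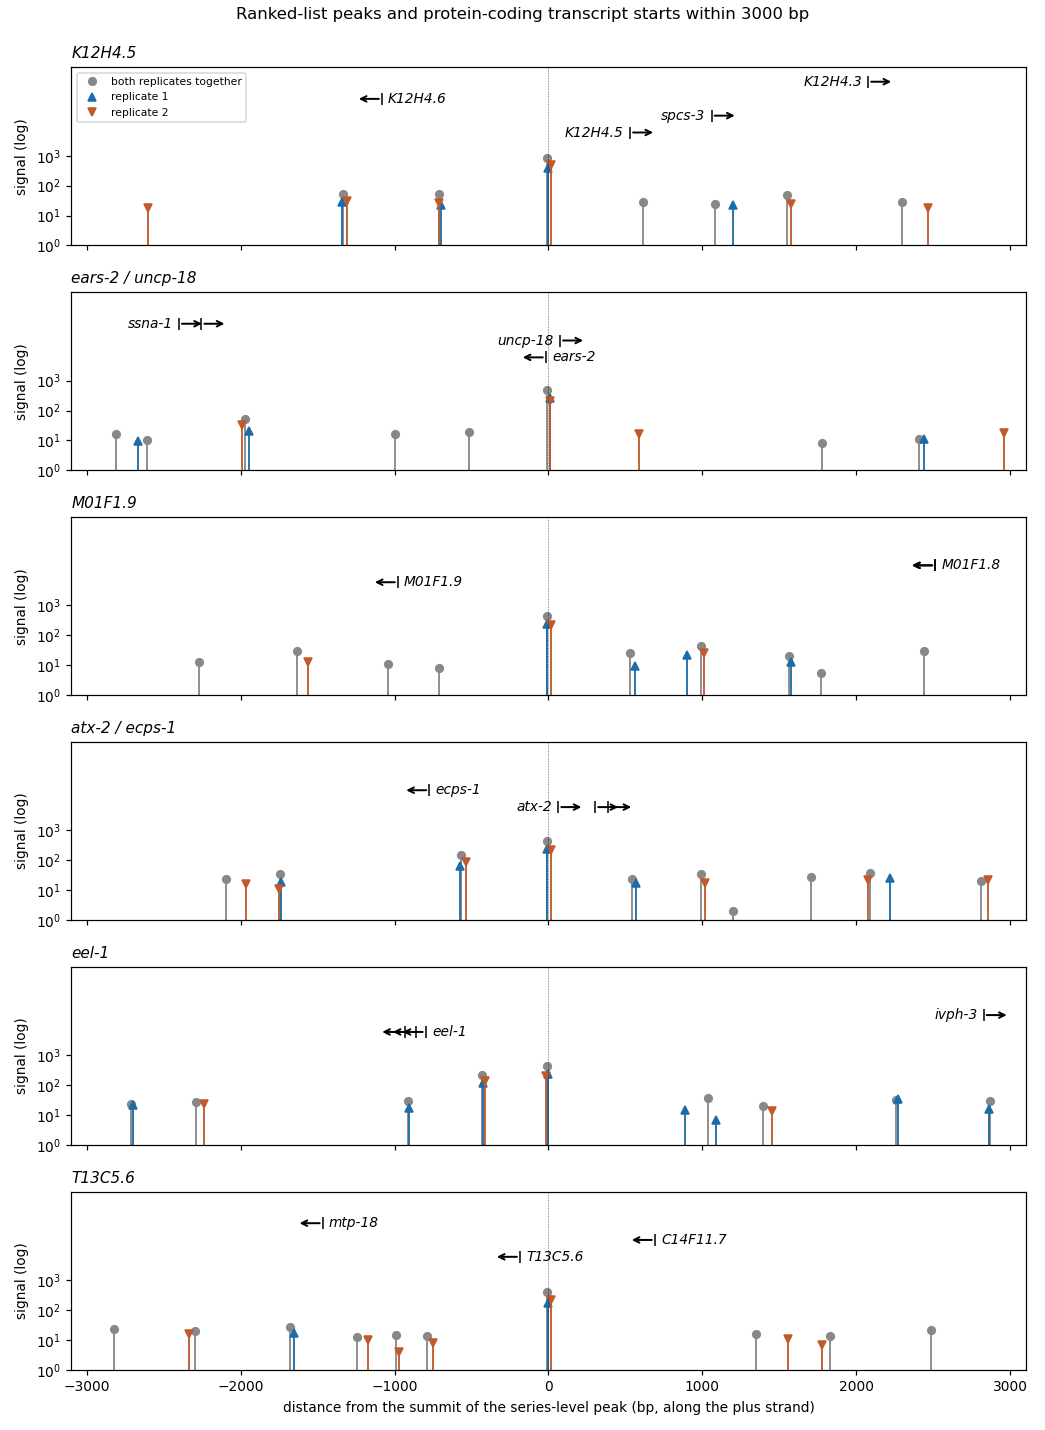
Signal value on a log axis (y, the authors' unit) of every ranked-list peak within 3000 bp of the 6 summits, against distance from the summit along the plus strand (x, bp); grey, blue and orange stems are the list of both replicates, replicate 1 and replicate 2, drawn 12 bp apart, and arrows above are protein-coding transcript starts pointing in the direction of transcription. Only at eel-1 and at atx-2 does a second stem of the series-level list exceed 100 (225 and 153).

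Every neighbourhood held further low peaks in the ranked lists. Around the 6 summits there were 7 to 10 series-level ranked summits within 3000 bp, the high peak included (median 9.5), beside a median of 8 around all conservative summits, 9 around conservative promoter summits away from small-RNA genes and 7 around the 29304 protein-coding transcript starts. The replicates' own ranked lists had medians of 4 (replicate 1) and 5 (replicate 2), with 2 to 8 and 3 to 7 summits. Of the 48 further series-level summits, 6 had a ranked summit within 100 bp in both replicates, 11 in replicate 1 alone, 13 in replicate 2 alone and 18 in neither. Only the second peaks at eel-1 and ecps-1 reached a −log10 global irreproducible discovery rate (IDR, the expected share of irreproducible peaks) of 2.

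At K12H4.5 the 6 further summits had signal values of 23.5 to 52.2, the highest of them 386 bp upstream of K12H4.6, and 1 lay 32 bp inside spcs-3 with 23.5. Around the ears-2 / uncp-18 peak the 7 others had 7.93 to 53.6, the highest 297 bp downstream of the ssna-1 start. Around M01F1.9 the 9 others had 5.69 to 43.5, and the 2 nearest to the M01F1.9 start itself, 50 bp downstream and 277 bp upstream of it, had 10.7 and 7.92. The annotated start of M01F1.9 thus held no high peak. At atx-2 and ecps-1 the 8 summits besides the second peak had 2.04 to 38.8, and at eel-1 the 7 besides it had 20.3 to 37.2, of which 1 with 29.7 lay 31 bp upstream of a start of eel-1. At T13C5.6 the 9 others had 12.2 to 27.9, the highest inside mtp-18.

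Compared with the highest other peak within 3000 bp in the series-level ranked list, the K12H4.5 peak was 16.5-fold higher, T13C5.6 13.8-fold, M01F1.9 10.5-fold, uncp-18 8.82-fold, atx-2 and ecps-1 2.94-fold and eel-1 1.92-fold. The median of this ratio over 404 conservative promoter peaks away from small-RNA genes with such a neighbour was 1.94, with quartiles of 1.40 and 2.79. In replicate 1 the 6 ratios ran from 2.00 at eel-1 to 13.9 at K12H4.5, and in replicate 2 from 1.49 to 16.4 for the same genes. Since the peaks were chosen for height, these ratios are a description.

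**Figure D4:**
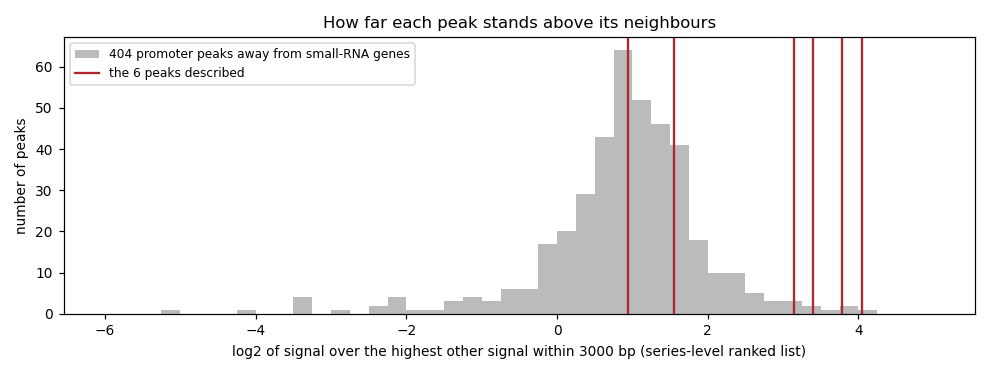
Number of peaks (y axis) by log2 of the signal value over the highest other signal value within 3000 bp in the series-level ranked list (x axis); the grey histogram holds 404 conservative promoter peaks away from small-RNA genes and red lines mark the 6 peaks. The lowest lines are eel-1 (1.92-fold) and atx-2 with ecps-1 (2.94-fold), and the others lie at 8.82-fold or more.

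In the series-level ranked list the 6 peaks ranked lower, at 23, 47, 52, 55, 57 and 66 of 111583. Of the 65 peaks above the lowest of them, 50 were not in the conservative list, among them 21 of the 22 above K12H4.5. The thresholded lists derive from 1 more source file than the ranked lists, per the notes deposited with the samples. The −log10 global IDR of the 6 peaks was 4.18 to 4.89.

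The sequences differ from one another. Sequence was not used in the choice, but there are 6 peaks, and every motif other than CCGCCC and CCACCC was picked after the sequences were seen, so the counts are descriptions. The stretch within 50 bp of each summit held 53.5% ± 6.04 G and C (SD over the 6 peaks), from 45.5% at K12H4.5 to 60.4% at uncp-18, beside 47.8% ± 8.56 (SD) for the 774 conservative peaks away from small-RNA genes and 34.1% ± 8.10 (SD) for 19973 promoters, each taken from 150 to 50 bp upstream of a gene start. The box that Krüppel-like factors recognise, searched as CCGCCC or CCACCC on both strands, lay that close to the summit in 1 of 6 peaks, that of atx-2 and ecps-1, where it reads GGGCGG on the plus strand with its centre 17 bp from the summit. It was there in 12.3% of the 774 peaks and 5.33% of the promoters. Of the other 5, none had these 6 letters within 100 bp. With the shorter CACCC, a search added after the data were seen, the eel-1 peak had 3 matches on the minus strand, centred 4 bp before and 18 and 42 bp after the summit. CACCC lay within 50 bp of the summit in 11.2% of the 774 peaks and in 6.84% of promoters. At uncp-18 there was 1 match, between 50 and 100 bp from the summit and outside the printed stretch.

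GCGC was most frequent in the peaks of ears-2 / uncp-18 and atx-2 / ecps-1. Within the peak, the first had 6 copies of GCGC, some of them outside the printed stretch, and the second had 4. CGCGCA was within 50 bp of the summit in these 2, beside 11.4% of the 774 peaks and 2.17% of promoters. It overlaps GCGC. In the uncp-18 peak it lay 5 bp from the summit, and in the other 27 bp. K12H4.5 had 2 copies of GCGC, both inside GCGCATTTC, which occurs in 2 copies in the peak. GCGC lay within 50 bp of the summit in these 3 of the 6 peaks, beside 39.0% of the 774 peaks and 11.6% of promoters. GCGCATTTC occurred as near to the summit in 1.94% of the 774 peaks and in 0.140% of promoters. GAGAGA lay within 50 bp of the summit at K12H4.5 and T13C5.6, beside 11.0% of the 774 peaks and 9.03% of promoters.

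The peaks of M01F1.9 and eel-1 shared a different sequence. The longest identical stretch between any 2 of the 6 peaks, over 15 pairs and both strands, was 15 bp, tttcgtggggcctca, at III from 3500008 to 3500022 and at IV from 3050870 to 3050884, starting 27 and 31 bp before the respective summits. The next longest of the 15 was 12 bp and rich in A and T. Beside or overlapping this stretch both peaks held CCCCTTTTCG, in 5 copies at eel-1, 15, 15, 30 and 17 bp apart, and in 1 copy at M01F1.9. The lower eel-1 peak, 375 bp upstream of the start, held 4 copies. These 10 letters lay within 50 bp of 30 of the 774 summits (3.88%) and in 12 of 19973 promoters (0.0601%). The nuclear genome held 571 copies of these 10 letters and 36 of the 15. The 15 letters are not particular to these 2 peaks. Over whole peaks, 11 of the 774 held them (1.42%), and 35 of the 774 held GTGGGGCC (4.52%).

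The T13C5.6 peak held a match to GGTTCNA, letters of the B box, an internal promoter element of tRNA genes read by RNA polymerase III factors. These letters were shortened after a search with a longer form of the box, which the peak also matched. The match lies on X from 6207899 to 6207905, 30 bp from the summit, inside C14F11.14 and on its strand. These letters occurred within 50 bp of 119 of the 198 summits at tRNA genes (60.1%), 34 of the 774 away from small-RNA genes (4.39%) and in 2.57% of promoters. Of those 34 peaks, 4 (11.8%) had the summit inside an ncRNA gene, beside 52 of all 774 (6.72%). A match is not a binding site, and transcription of C14F11.14 was not measured here.

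Repeated sequence was uneven among the 6. Every 36-base stretch of the peak occurred once in the nuclear genome at K12H4.5, uncp-18, M01F1.9 and atx-2 with ecps-1. The share was 94.6% at T13C5.6 and 59.1% at eel-1, where CCCCTTTTCG is repeated. All stretches were unique in 64.0% of the 774 peaks. The part of repeated sequence in the height of the eel-1 peak was not tested.

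The first 3 peaks below rank 20 that meet the same position rule were ranks 21, 29 and 39. Rank 21, with 363, lay 403 bp upstream of npp-6, a nuclear pore gene, and 228 bp downstream of a start of spd-5, which encodes a centrosome scaffold protein. It had 177 in replicate 1 and 187 in replicate 2. Rank 29 (336) lay 46 bp upstream of idhg-1, an isocitrate dehydrogenase subunit gene, and 621 bp upstream of mlcd-1, with 140 and 189. Rank 39 (315) lay 480 bp upstream of atad-3, a mitochondrial AAA ATPase gene, and 873 bp upstream of nrde-2, with 171 and 136. Those of spd-5 and atad-3 held 3 copies of CCCCTTTTCG each.

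Genes related to the members were looked up in the conservative list, where 3.05% of all genes have a peak in the window. Of 33 genes for proteasome subunits and adaptors, ecps-1 was the 1 with a peak. Of 6 genes of the Sec1/Munc18 family it was uncp-18, and of 6 HECT ligase genes eel-1. Each of these is a member by choice, so the conservative list gave 0 others in these 3 sets of genes. In the thresholded list of replicate 2, where 1.52% of all genes have a peak, 2 of the 33 proteasome genes had one. In that of replicate 1 it was 1. Of 11 genes that include atx-2, eel-1 and known partners of their proteins, 3 had a peak: the 2 members and lin-35, the worm retinoblastoma gene, with a summit 193 bp upstream, a signal value of 133 at rank 259, and 88.8 in replicate 1 and 59.1 in replicate 2. In the replicates' own thresholded lists, 3 of the 11 had a peak in replicate 1 and 2 in replicate 2, where lin-35 had none in its window. The 59.1 of lin-35 in replicate 2 is therefore from the ranked list, which holds peaks without a threshold.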

How the data were processed

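The authors deposited ChIP-seq peak lists in ce11 coordinates, per the labels: a thresholded and a ranked list for each replicate and 2 of each for both replicates together, made by IDR analysis. The aligner, the peak caller with its version, and how multiply mapping reads were handled, is in each case not given in the sources used here. The signal value of a peak is the authors' and is not normalized between lists, so it was used within a list and replicates were compared by rank. The deposited score was within 1 unit of a log2 scale of the global IDR capped at 1000 for 111581 of 111583 ranked peaks, and the −log10 global IDR was taken from the deposited ranked list. Summits were start plus the deposited offset. No file used here gives read numbers, so the depth is unknown.

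Gene models were from Ensembl release 115 and sequence from RefSeq WBcel235, whose chromosome lengths hold every deposited peak. Peaks of different lists were matched by summits within 100 bp. Python 3.11.15 with pandas 2.3.3 was used, and the window search was tested on simulated summits. The members and lists were chosen with earlier results of these data known, so no test was made. Alternatives were other lists, each replicate alone, other windows, starts and distances. The genes named by rule were the members, genes with a start within 3000 bp of their summits, the next 3 peaks by the same rule and bound genes of 4 lists. Col-85, at the rank limit, and further genes near peaks with CCCCTTTTCG were named outside these rules, after the values were seen.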

Additional observations from a re-analysis of the deposited data

How the results depend on the processing

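Of 35 alternatives to 7 values, 1 of them chosen after seeing the data, 24 moved a value by no more than the limit set for it (1.5 times for a count, the SD between replicates otherwise) and 11 moved it further. The 7 genes kept a summit in the window with each list, with a window of 2000 bp, with peak overlap and at a global IDR of 0.001. The wider window and the overlap take in the first window by definition, and the other counts follow from the choice by height. Nothing is read from them, although they stand among the 24. From 200 bp upstream to 100 bp downstream of a start, 3 of the 7 had a summit (1.06% of all genes). The median rank of 10.5 became 53.5 in the series-level ranked list and 48 to 63.5 in the ranked list of a single replicate, lists that hold far more peaks, and 3.5 among the conservative peaks away from small-RNA genes alone. That last move is within the SD of 10.96, which comes from the replicates' long ranked lists. The median of 9.5 ranked summits within 3000 bp was 4 to 5 in single replicates, 3 within 1000 bp and 1 at a global IDR of 0.05. The mean G and C content was 57.5% within 25 bp of the summit and 47.1% within 100 bp. The Krüppel-like box was in 2 peaks in place of 1 when CACCC was searched for CCACCC, the search added later. The best-fit count stayed at 5 of 6, and was 4 when starts of every class were counted. No paired analysis was possible because there is 1 group. Read depth is unknown, 2 replicates give no test of height, and a start shortened by trans-splicing could lengthen the distances.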

Other observations

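The letters CCCCTTTTCG, seen at eel-1 and M01F1.9, occurred in further conservative peaks. Over whole peaks, 34 of the 774 away from small-RNA genes held them (4.39%), 31 of these with 2 or more copies. Of the 34, 27 (79.4%) had the summit in a promoter window, beside 52.3% of the 774, and their median rank was 347 beside 612.5. In 16 of the 34 another such peak began within 3000 bp, as at eel-1, spd-5, nrde-2, duo-3 and W09B6.4. Other promoters among them, chosen after their values were seen, were those of rps-24, a ribosomal protein gene (3 copies, signal value 189), dnj-28, a chaperone gene (2 copies, 196), hsp-1, a heat shock protein gene (1 copy, 115.1), and ogdh-1, an oxoglutarate dehydrogenase gene (5 copies, 83.6). Within 100 bp of the same promoter centres, 11 of 19973 (0.0551%) had 2 or more copies, beside 30 of the 774 peaks (3.88%). The letters were picked from these peaks, so the shares carry no test.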
